A study of Mus musculus with 3 samples.

Results

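The imprinted Dlk1-Dio3 cluster of mouse chromosome 12 holds one of the longest runs of miRNA genes in the genome, and 59 of the 2235 mouse miRNA precursors searched here lie in it on the plus strand. The rule takes every precursor by its position, from GENCODE and RefSeq annotation on build GRCm38. The 59 precursors give 107 distinct mature arms, an arm being the 5p or 3p strand that Dicer leaves from the hairpin. A read was counted for an arm when it began at the arm's 5′ end and its first 16 nt or more were those of the precursor, with up to 5 unmatched nt allowed at its 3′ end.

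The material was liver of C57BL/6 mice, an inbred strain, taken 4 weeks after injection of scAAV9, an adeno-associated virus vector with a self-complementary genome, and its 18 to 30 nt RNAs were sequenced. All 3 groups received that vector. It carried no Tough Decoy in mock, a decoy against miR-122 in TuD-miR-122, and a decoy against let-7 in TuD-let-7. A Tough Decoy (TuD) is a hairpin RNA made in the cell that holds its target miRNA on exposed, imperfectly paired sites, and the study asked how such decoys affect miRNA stability and integrity. Each group had 1 library. The sources used here do not give the number of mice behind a library, their age or the promoter of the decoy, so no value below has a replicate check and no test between groups was possible. Intervals are exact 95% intervals that cover counting error only, and none of the cluster's miRNAs is a target of either decoy.

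In the Dlk1-Dio3 domain the protein genes Dlk1, Rtl1 and Dio3 are expressed from the paternal chromosome, and the noncoding RNAs Meg3, Rian and Mirg from the maternal chromosome. The miRNAs and many C/D box snoRNAs of the domain are maternal products processed from, or made alongside, those long RNAs. They are abundant in embryo, placenta, brain and some endocrine cells, and scarce in adult liver. A subset lies antisense to Rtl1, and their perfect pairing with the Rtl1 mRNA leads to its cleavage.

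The libraries held 3450317 reads (mock), 3681585 (TuD-miR-122) or 2066892 (TuD-let-7), of which 71.83% to 78.23% were assigned to miRNAs. Levels are given as RPM, reads per 1000000 miRNA reads once those of the miR-122 and let-7 loci are set aside, so that a loss of the decoy's own target does not raise the others. These numbered 1370699, 1448340 and 484199. Values for the 3 libraries always follow this order, mock first and TuD-let-7 last. A count of 3 reads, the limit that a count of 0 allows, equals 2.189, 2.071 and 6.196 RPM, so this limit is highest in TuD-let-7. Hepatocyte miRNAs were present throughout: all 7 listed precursors had reads in every library, and the 6 other than Mir122 summed to between 153698 and 211905 RPM. Mir122, set aside in every library, was 0.806-fold of mock in TuD-miR-122 on this scale. In TuD-let-7, whose decoy does not target it, Mir122 was 2.70-fold of mock.

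The mature sequences below are the arms with at least 20 reads in mock, joined by miR-379-3p and miR-411-3p because they share a seed. They come from RefSeq (GRCm38, chromosome 12, plus strand), which holds 105 of the 107 arms, and are written 5′ to 3′ with the seed, bases 2 to 8, in capitals. The seed sets most of a miRNA's target choice. They are in genomic order from miR-127-3p at 109592888 to miR-369-3p, which ends at 109743486.
miR-127-3p: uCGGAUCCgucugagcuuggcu
miR-434-5p: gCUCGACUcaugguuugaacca
miR-136-5p: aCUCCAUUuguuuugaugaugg
miR-379-5p: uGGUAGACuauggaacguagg
miR-379-3p: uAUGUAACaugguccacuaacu
miR-411-5p: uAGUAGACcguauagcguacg
miR-411-3p: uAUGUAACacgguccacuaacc
miR-299a-5p: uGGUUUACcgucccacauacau
miR-376b-3p: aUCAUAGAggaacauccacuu
miR-376a-3p: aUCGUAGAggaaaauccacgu
miR-300-3p: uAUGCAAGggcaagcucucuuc
miR-381-3p: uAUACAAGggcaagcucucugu
miR-134-5p: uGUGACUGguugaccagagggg
miR-541-5p: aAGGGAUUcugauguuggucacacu
miR-369-3p: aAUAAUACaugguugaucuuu

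Several of these look like copies of each other. Position by position from the 5′ end, miR-379-3p and miR-411-3p matched at 20 of 22 bases, differing by U10C and U22C, and both have the seed AUGUAAC. The seeds of miR-376b-3p and miR-376a-3p differ by A4G, and those of miR-381-3p and miR-300-3p also by A4G, although 18 of 21 and 19 of 22 bases match. By contrast miR-379-5p and miR-411-5p matched at 14 of 21 bases. In the whole cluster 8 seeds were shared by 2 arms each and none of these 8 by an arm outside it.

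As a whole the cluster was a minor component of the mock liver library and a far larger one in the liver that received the miR-122 decoy. Its arms had 1365 reads in mock, 21253 in TuD-miR-122 and 1651 with TuD-let-7, or 995.8, 14674 and 3409.8 RPM. That was 0.0996% (0.0944 to 0.105) of non-target miRNA reads in mock, 1.47% (1.45 to 1.49) in TuD-miR-122 and 0.341% (0.325 to 0.358) with TuD-let-7. The level was 14.7-fold that of mock in TuD-miR-122 (13.9 to 15.6) and 3.42-fold in TuD-let-7 (3.19 to 3.68), and TuD-miR-122 was 4.30-fold above TuD-let-7 (4.09 to 4.53). The ratios to mock share the mock library. The sum did not rest on its largest arm or arms: without miR-136-5p the ratios to mock were 14.7 and 3.48, and without the 5 most abundant arms 14.7 and 3.54. Scaled to all miRNA reads the let-7 decoy's ratio to mock was 2.17, and scaled to all reads it was 2.02. TuD-miR-122 over TuD-let-7 was 7.34 and 7.23 on these scales. In bulk liver RNA, more cells of a type that makes these miRNAs and more of the RNA per cell cannot be told apart.

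Most precursors of the cluster left some trace in liver. Reads fell on 53 of the 107 arms in mock, 74 in TuD-miR-122 and 57 with TuD-let-7, and 46 of the 59 precursors had an arm read in some library. The 13 without one were Mir1906-1, Mir3070a, Mir3070b, Mir432, Mir1188, Gm23912, Mir882, Mir679, Mir654, Mir487b, Mir539, Gm27379 and Mir453. Of these, some had reads that began away from a defined arm start. Mir679 had 1, 14 and 0 such reads, Mir487b 0, 7 and 1, and Mir539 1, 0 and 0. At most 3 cluster reads per library fitted another miRNA equally well and were left out. No counted read of 18 nt or longer, the lengths compared, matched in full an annotated transcript of a gene outside the interval. Transcripts inside it, such as Mirg, whose exons hold some of the precursors, were not part of that comparison.

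**Figure D1:**
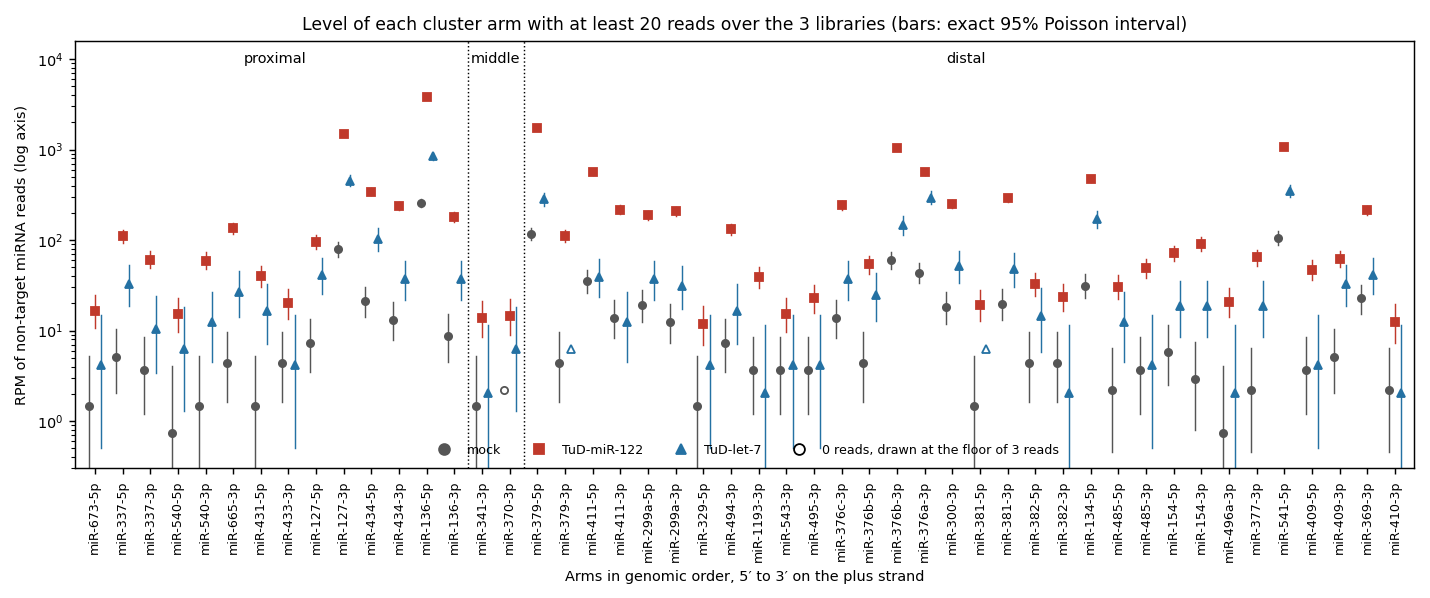
Level of each cluster arm with at least 20 reads over the 3 libraries, in genomic order, as RPM of non-target miRNA reads on a log axis, with exact 95% Poisson intervals. The squares of TuD-miR-122 lie above the circles of mock at every arm shown, and for the 13 arms with at least 20 mock reads the triangles of TuD-let-7 lie between the other symbols.

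The share of arms that were higher was far above the background of other miRNAs. An arm with 100 reads or more in the 2 libraries together was called higher when its whole interval exceeded 2, and lower when its whole interval was under 0.5. In TuD-miR-122 against mock 25 of 25 cluster arms that met the minimum were called higher, where 14.2% of all non-target arms and 3.86% of those outside the cluster (8 of 207) were. Their ratios ran from 9.49 to 31.2 with a median of 16.1, against a median of 0.942 outside the cluster. Most of these arms met the minimum only through their reads in TuD-miR-122, so an arm that did not differ would seldom have been counted. With the minimum set on mock alone, at 20 reads, 13 cluster arms remained, all were higher (median 14.7, range 9.49 to 19.0), and 2.67% of the 262 arms outside were.

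In TuD-let-7 against mock 5 of 7 cluster arms were called higher, beside 4.52% of all non-target arms and 2.08% of those outside the cluster. With the minimum of 20 mock reads 6 of 13 were called higher, beside 1.53% outside, and all 13 ratios were above 1 (median 2.83, range 1.12 to 6.75). Between the decoys, 21 of 27 arms were higher in TuD-miR-122 than in TuD-let-7, beside 17.0% of all non-target arms and 8.38% outside the cluster. Here too TuD-miR-122 carried arms past the minimum: 15 of the 27 had under 20 reads in TuD-let-7. With 20 reads required in TuD-let-7 alone, 10 of 12 cluster arms were higher, beside 6.00% of the 200 arms outside. This background depends on the scale, since the arms outside the cluster called higher at the minimum of 100 reads went from 16 to 42 scaled to all miRNA reads and to 40 scaled to all reads. No cluster arm was called lower at the minimum of 100 reads, beside 4.74%, 4.02% and 3.21% of all non-target arms in these comparisons, in the order given. Under the scale of all reads, which multiplies every TuD-let-7 to mock ratio by 0.590, 3 of the cluster's arms stayed above the threshold in that comparison.

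The proximal end, from Mir1906-1 to Mir136 (109544541 to 109595388, 50.9 kb), holds 15 precursors. Among them Mir431, Mir433, Mir127, Mir434, Mir432 and Mir136 lie antisense to the Rtl1 exon. These 6 precursors alone gave 538 reads in mock, 9005 in TuD-miR-122 and 743 with TuD-let-7, the bulk of the proximal reads. Their ratios to mock were 15.8 (14.5 to 17.3) and 3.91 (3.49 to 4.38).

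miR-136-5p was the most abundant arm of the cluster by mean RPM over the libraries, and has Rtl1 as its perfectly paired antisense partner. It had 353 reads (257.5 RPM) in mock, 5502 (3799 RPM) in TuD-miR-122 and 407 (840.6 RPM) with TuD-let-7, ratios to mock of 14.8 (13.2 to 16.5) and 3.26 (2.82 to 3.78). It made up 25.9% of the cluster's reads in mock, 25.9% in TuD-miR-122 and 24.7% with TuD-let-7, so its place within the cluster hardly moved. Its other strand, miR-136-3p, had 12, 261 and 18 reads.

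miR-127-3p, the other main anti-Rtl1 miRNA, was further above mock than miR-136-5p in both decoy libraries. Its level was 78.8 RPM in mock (108 reads), 1498 RPM in TuD-miR-122 (2170 reads) and 454.4 RPM with TuD-let-7 (220 reads), ratios of 19.0 (15.7 to 23.3) and 5.77 (4.56 to 7.33). The intervals of the ratio to mock of these arms did not overlap in TuD-let-7, and overlapped in TuD-miR-122. miR-127-5p had 10, 138 and 20 reads.

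The strands of Mir434 were closer in abundance. miR-434-5p had 29, 497 and 50 reads in mock, TuD-miR-122 and then TuD-let-7 (16.2-fold and 4.88-fold of mock), and miR-434-3p had 18, 346 and 18 (18.2-fold and 2.83-fold). Before the precursors antisense to Rtl1 in plus-strand order, miR-665-3p had 6, 197 and 13 reads. Its ratio of 31.1 in TuD-miR-122 (14.0 to 85.7) was among the highest in the cluster, on few mock reads.

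In the middle of the cluster, the 4 precursors within introns of Rian and Mir882 gave almost nothing: 3 reads in mock, 41 in TuD-miR-122 and 4 with TuD-let-7. Mir770 and Mir1906-1, within Meg3 exons, gave 4 reads in all, each of them in TuD-miR-122. Nearly all reads of the cluster therefore came from its ends.

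The distal end runs from Mir379 to Mir3072 (109709060 to 109747960, 38.9 kb) and holds 39 precursors, of which the first 25 overlap no other annotated gene and the last 14 lie in exons or introns of Mirg. The 25 gave 529, 8307 and 516 reads, ratios to mock of 14.9 (13.6 to 16.3) and 2.76 (2.44 to 3.12). The 14 within Mirg gave 271, 3312 and 342 reads, ratios of 11.6 (10.2 to 13.1) and 3.57 (3.04 to 4.21). The order of these groups was thus opposite in the decoy libraries, with intervals that did not overlap in TuD-miR-122 and did in TuD-let-7.

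Mir379 and Mir411 are neighbours at the head of the distal end. miR-379-5p had 161 reads in mock (117.5 RPM), 2485 in TuD-miR-122 (1716 RPM) and 137 with TuD-let-7 (282.9 RPM), ratios of 14.6 (12.5 to 17.2) and 2.41 (1.90 to 3.04). miR-411-5p had 48 (35.0 RPM), 816 (563.4 RPM) and 19 (39.2 RPM), ratios of 16.1 (12.02 to 22.0) and 1.12 (0.622 to 1.94). Its level in TuD-let-7 was therefore not distinguishable from mock by counting error, and its interval overlapped that of miR-379-5p. In TuD-miR-122 it was 14.4-fold (9.13 to 24.0) above TuD-let-7.

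The 3p strands of that pair, which share the seed AUGUAAC, were also scarce in TuD-let-7. miR-411-3p had 19, 314 and 6 reads, 15.6-fold and 0.894-fold of mock, and miR-379-3p had 6, 162 and 0. For miR-379-3p the exact interval of the ratio between the decoys has a lower limit of 14.5 and no upper limit.

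The miR-376 group, made from 3 hairpins within about a kilobase, also split. miR-376b-3p had 82 reads in mock, 1520 in TuD-miR-122 and 71 with TuD-let-7, ratios to mock of 17.5 (14.0 to 22.2) and 2.45 (1.76 to 3.41). For miR-376a-3p the reads were 60, 819 and 143, ratios of 12.9 (9.93 to 17.1) and 6.75 (4.96 to 9.28). miR-376a-3p thus had fewer reads than miR-376b-3p in mock and TuD-miR-122 and more in TuD-let-7, and it was only 1.92-fold (1.60 to 2.30) higher in TuD-miR-122 than in TuD-let-7. The third arm, miR-376c-3p, had 19, 351 and 18 reads.

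The near-identical pair miR-381-3p and miR-300-3p had similar ratios. There were 27, 418 and 23 reads of miR-381-3p, ratios of 14.7 and 2.41, and 25, 363 and 25 of miR-300-3p, ratios of 13.7 and 2.83. Their intervals overlapped in both libraries.

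Within Mirg, miR-541-5p was the most abundant arm and had one of the 3 smallest ratios of the called arms in TuD-miR-122. Its reads were 145 in mock (105.8 RPM), 1564 in TuD-miR-122 (1080 RPM) and 171 with TuD-let-7 (353.2 RPM), ratios of 10.2 (8.61 to 12.2) and 3.34 (2.66 to 4.19). miR-134-5p, known in neurons as a repressor of Limk1 in dendrites, had 43, 686 and 82 reads, ratios of 15.1 (11.1 to 21.1) and 5.40 (interval from 3.69 upward). miR-369-3p, with 31, 311 and 20 reads, had the smallest ratio to mock of the called arms in TuD-miR-122, 9.49 (6.55 to 14.2), and 1.83 (0.987 to 3.31) in TuD-let-7.

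The remaining arms named by rank or ratio were on few mock reads. miR-299a-5p had 26, 271 and 18 reads, and miR-299a-3p 17, 304 and 15. miR-494-3p had 10, 191 and 8, and miR-409-3p 7, 90 and 16. The highest ratio among arms called in TuD-miR-122, 31.2 (11.9 to 116), belonged to miR-154-3p with 4, 132 and 9 reads, and its interval includes the ratio of the whole cluster.

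**Figure D2:**
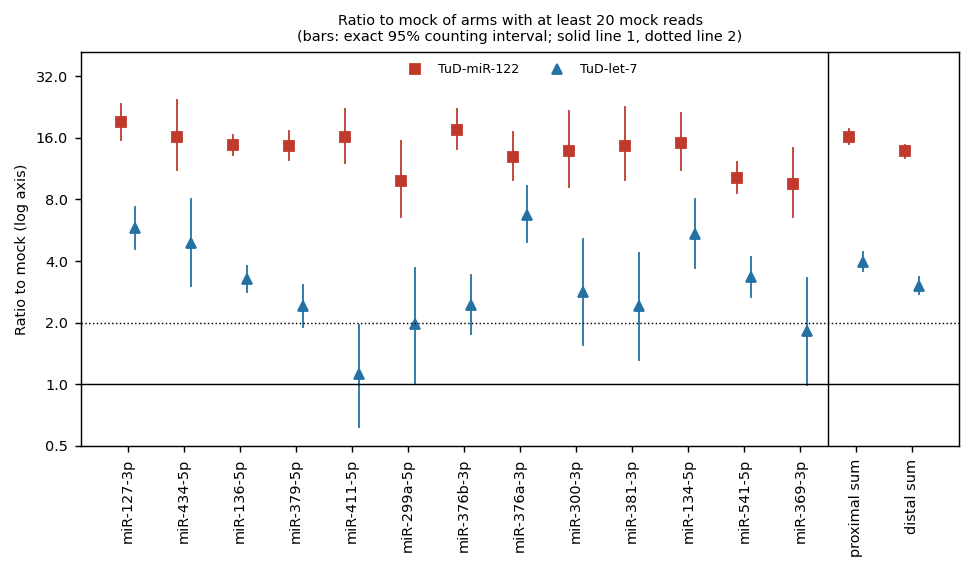
Ratio to mock on a log axis of the 13 cluster arms with at least 20 mock reads and of the summed proximal and distal ends, in TuD-miR-122 (squares) and TuD-let-7 (triangles), with exact 95% counting intervals. All squares lie above 9, while the triangles spread from 1.12 for miR-411-5p to 6.75 for miR-376a-3p.

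Compared end to end, the proximal side was slightly further above mock than the distal side. In reads the proximal end had 562 in mock, 9593 in TuD-miR-122 and 789 with TuD-let-7, and the distal end 800, 11619 and 858. The proximal ratios to mock were 16.1 (14.8 to 17.6) and 3.97 (3.56 to 4.44), and the distal ratios 13.7 (12.8 to 14.8) and 3.04 (2.75 to 3.35). The proximal share of the cluster's reads was thus 41.2% (38.6 to 43.8) in mock, 45.1% (44.5 to 45.8) in TuD-miR-122 and 47.8% (45.4 to 50.2) with TuD-let-7. The odds of a proximal against a distal read were 1.17 times (1.05 to 1.32) those of mock in TuD-miR-122 and 1.31 times (1.13 to 1.52) in TuD-let-7. Without miR-136-5p the proximal shares were 20.6%, 25.97% and 30.7%, an alternative chosen after seeing the data. That tilt is small beside the ratios themselves, and the ends were not separable arm by arm: over the arms with at least 20 mock reads, the 3 proximal arms had ratios from 14.8 to 19.0 in TuD-miR-122 and the 10 distal arms from 9.49 to 17.5. In TuD-let-7 the medians were 4.88 for the 3 and 2.43 for the 10.

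Which strand was kept differed from hairpin to hairpin, and few differences between libraries could be seen at these read counts. Of 34 precursors with both arms defined and at least 20 reads over the libraries together, 29 had the same dominant arm in all libraries. The intervals of the 5p share overlapped between every pair of libraries for 30. Some had very few reads outside TuD-miR-122, such as Mir496a with 1 in mock and 1 in TuD-let-7. For these the intervals were so wide that overlap says little. Of the 18 precursors with at least 200 reads, 15 had overlapping intervals. In TuD-miR-122 the 5p arm was dominant in 11 and the 3p arm in 23. The proximal end was mixed, with 5 and 4, whereas at the distal end 17 of 23 were dominated by the 3p arm. The 5 precursors without a constant dominant arm were Mir370, Mir299a, Mir382, Mir485 and Mir154, all with near-balanced arms or few reads.

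Over the libraries together, 18 precursors had at least 200 reads, and 13 of them had a dominant arm at 10 or more times the other. Mir541 and Mir134 lay at the 5p extreme, at 99.7% (99.4 to 99.9) and 99.3% (98.3 to 99.8) 5p in TuD-miR-122. Mir494 had 0 of 191 reads from its 5p arm in that library, with an upper limit of 1.91%, and Mir376a and Mir300 had 1.44% and 1.09%. Mir136 was 96.7%, 95.5% and 95.8% 5p in mock, TuD-miR-122 and then TuD-let-7, and Mir127 was 8.47%, 5.98% and 8.33%. These shares count only reads at each arm's main start. With other starts included, TuD-miR-122 had 5589 reads of miR-136-5p and 491 of miR-136-3p, a lower 5p share for Mir136. For Mir299a these counts were 286 (5p) and 422 (3p), also a lower 5p share. In 4 the strands were within 2-fold of each other: Mir337, Mir434, Mir299a and Mir154. The intervals failed to overlap between some pair of libraries for Mir379, Mir376c and Mir376b. The 5p share of Mir379 was 96.4% in mock, 93.9% (92.9 to 94.8) in TuD-miR-122 and 100% with TuD-let-7. For Mir376b it was 6.82%, 4.88% (3.88 to 6.06) and 14.5%, on 12 5p reads in TuD-let-7.

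**Figure D3:**
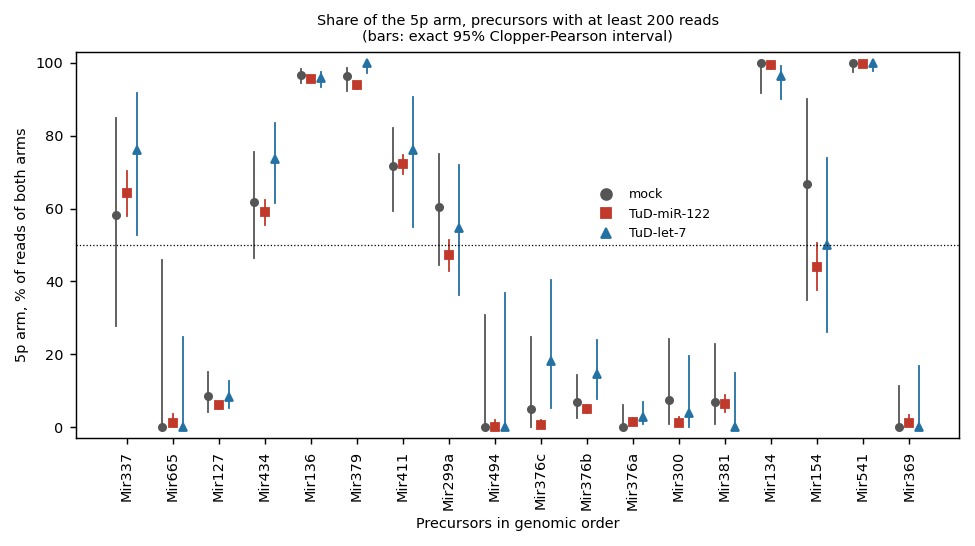
Share of reads from the 5p arm for the 18 precursors with at least 200 reads, in genomic order, with exact 95% Clopper-Pearson intervals. Most precursors lie near 0% or near 100% in all 3 libraries, and the wide bars of mock and TuD-let-7 reflect their few reads.

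The ends of the reads were examined because the study asked about miRNA integrity. Untemplated tails and shortened 3′ ends can accompany miRNA turnover, but their shares alone do not measure decay. In the cluster, 21.9% (19.6 to 24.3) of arm reads carried an unmatched 3′ tail in mock, 24.4% (23.8 to 24.98) in TuD-miR-122 and 27.6% (25.3 to 30.0) with TuD-let-7. Other non-target arms had 20.4%, 19.3% and 25.3% of their pooled reads tailed. Taken arm by arm, with at least 200 reads in TuD-miR-122, the median was 21.8% over 15 cluster arms and 22.97% over 131 others. A tail here is any unmatched 3′ end, sequencing errors included. Tails of only U made up 6.21% of cluster reads in mock, 10.1% in TuD-miR-122 and 9.66% with TuD-let-7, and tails of only A 9.08%, 7.35% and 7.38%. Reads with a matching part under 21 nt, called trimmed, were 15.5%, 12.1% and 16.6% in the cluster and 9.78%, 8.87% and 15.4% outside it.

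Tailing varied far more between arms than between libraries. Among arms with at least 200 reads in TuD-miR-122 and enough annotated hairpin beyond them to judge a tail, the highest tailed shares were 57.6% (52.3 to 62.7) for miR-300-3p, 53.9% (50.1 to 57.7) for miR-134-5p and 53.5% (47.8 to 59.1) for miR-411-3p. The lowest were 4.18% for miR-369-3p, 4.56% for miR-376c-3p and 8.61% for miR-381-3p. miR-300-3p and miR-381-3p, which match at 19 of 22 bases, thus lay at opposite extremes, and did so also in mock (68.0% and 7.41%) and TuD-let-7 (56.0% and 8.70%). The kind of tail differed as well: in TuD-miR-122 only-U tails were on 31.6% of miR-127-3p reads and only-A tails on 5.35%, while miR-379-5p had 7.08% and 19.6%. For miR-136-3p, miR-299a-3p and miR-376a-3p the annotated hairpin ends too close to the arm.

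**Figure D4:**
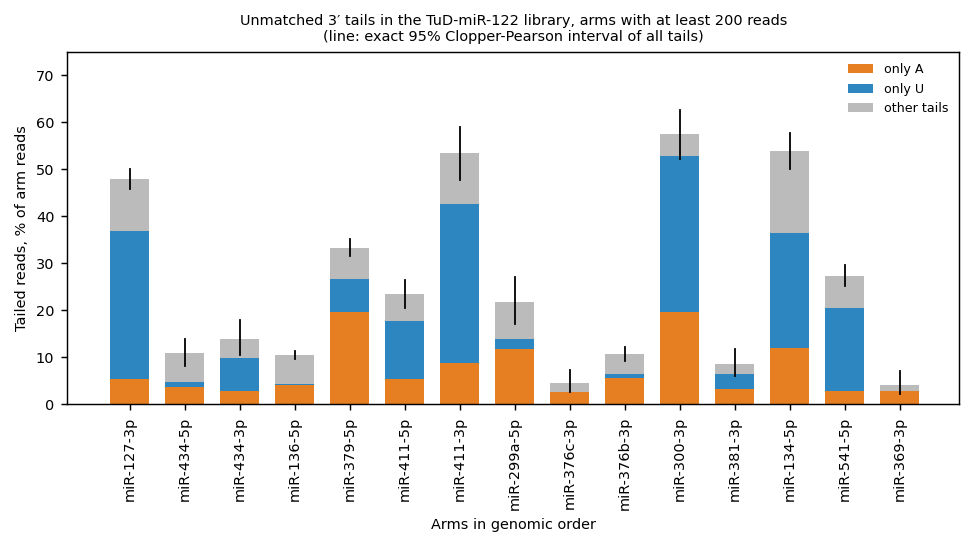
Share of reads with an unmatched 3′ tail in TuD-miR-122 for arms with at least 200 reads, split into tails of only A, only U and other tails, with the exact 95% interval of all tails. miR-300-3p, miR-134-5p, miR-411-3p and miR-127-3p stand near or above 48%, and miR-369-3p and miR-376c-3p under 5%.

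Trimming was uneven between arms as well. In TuD-miR-122 the largest trimmed shares were 39.8% for miR-411-3p, 38.0% for miR-134-5p and 35.6% for miR-434-5p, and the smallest 2.48% for miR-300-3p, 2.63% for miR-381-3p and 2.91% for miR-136-5p. The most frequent read of miR-136-5p was 23 nt, at 84.1% of its reads, where RefSeq gives 22 nt.

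Reads that begin elsewhere than at the arm's main 5′ end have a shifted seed. They were 6.27%, 6.11% and 5.66% of cluster reads in mock, TuD-miR-122 and then TuD-let-7, beside 7.05%, 7.38% and 8.31% outside the cluster. They were most frequent in 3 arms: miR-136-3p had 52.0%, 46.8% and 51.4%, miR-299a-3p 28.0% in TuD-miR-122, and miR-411-5p 28.4%, 22.9% and 36.7%. At the other extreme in TuD-miR-122 were miR-411-3p at 0.633%, miR-376c-3p at 1.40% and miR-136-5p at 1.56%.

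Among changes of A to G that at base 5 of miR-411-5p stood out, and it was singled out after its values were seen. A-to-I editing by ADAR enzymes is read as A-to-G and is known in several hairpins of this cluster, within the seed. At base 5 of miR-411-5p (109710194), counted from 1 at the 5′ end, the change A5G was in 11 of 79 reads of mock, 16 of 1071 of TuD-miR-122 and 5 of 35 of TuD-let-7, over the main start and the start 1 nt upstream. The shares were 13.9% (7.16 to 23.6), 1.49% (0.856 to 2.41) and 14.3% (4.81 to 30.3), and the interval of TuD-miR-122 overlapped neither of the others. In levels, the reads with A at this base were 49.6 RPM in mock, 728.4 in TuD-miR-122 and 62.0 with TuD-let-7, whereas those with G were 8.03, 11.05 and 10.3. The form with G was 1.38-fold of mock (0.600 to 3.28) in TuD-miR-122, an interval that includes 1, beside 14.7-fold (11.5 to 19.1) for the form with A.

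Changes of A to G were rarer at other seed positions that had at least 200 reads. Outside the cluster the highest share was 1.19% over 302 such positions in mock, and 1.30% over 217 in TuD-let-7. With 79 and 35 reads in these libraries, miR-411-5p itself was under that minimum. Positions of like depth were therefore not compared there. Among cluster arms only 1 position in mock and 2 in TuD-let-7 reached the minimum. Among 39 seed positions with A and at least 200 reads of cluster arms in TuD-miR-122, the median share of G was 0.132% and that of miR-411-5p, 1.57% at its main start, was the highest, beside at most 1.05% at 304 such positions outside the cluster. miR-379-5p, whose base 5 is also A, had G in 2 of 163 reads in mock, 7 of 2485 in TuD-miR-122 and 0 of 137 with TuD-let-7. Reads with a mismatch are left out of the arm counts above, unless it falls within the last 5 nt of the read. There the unmatched end can be scored as a tail, and the shortened matching part as trimming. Errors near the 3′ end can therefore enter the tailed and trimmed shares. TuD-let-7 had more reads with 1 mismatch of any kind, 20.6% of cluster reads beside 7.98% (mock) and 7.99% (TuD-miR-122). Outside the cluster it likewise had 19.6% against 6.95% and 7.71%. Changes of other kinds reached high shares in TuD-let-7. G11T of miR-541-5p was in 25 of its 193 reads there (12.95%), beside 0 of 144 in mock and 0 of 1558 in TuD-miR-122. G10T of miR-136-5p was in 42 of 446 (9.42%), beside 2 of 352 and 12 of 5423. In TuD-let-7, A6C and G4T of miR-541-5p were in 20 of 188 and 19 of 187 reads, beside 0 of 144 and 1 of 145 in mock. The TuD-let-7 count and ratio of miR-541-5p given above leave these mismatched reads out.

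Other RNAs of the domain gave a readout that did not enter the choice of the members. Short reads matching only the snoRNAs of the interval numbered 15 in mock, 117 in TuD-miR-122 and 11 with TuD-let-7, or 10.9, 80.8 and 22.7 RPM. The ratios to mock were 7.38 (4.30 to 13.6) and 2.08 (0.863 to 4.84). Pieces of the long plus-strand RNAs numbered 3, 65 and 3, a ratio of 20.5 (6.71 to 102) in TuD-miR-122. By gene, Rian gave 1, 34 and 3 of these, Mirg 2, 24 and 0, and Meg3 0, 5 and 0. Most snoRNA reads came from Gm25854, with 12, 77 and 9, followed by AF357341 with 2, 29 and 0. In TuD-miR-122 the ratios to mock of pieces of Rian, Mirg, Gm25854 and AF357341 had intervals above 1, and those of Meg3 and the other snoRNAs and long RNAs had intervals that include 1. In TuD-let-7 both summed intervals include 1. Arms of miRNAs on the minus strand of the interval had 1, 10 and 0 reads.

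**Figure D5:**
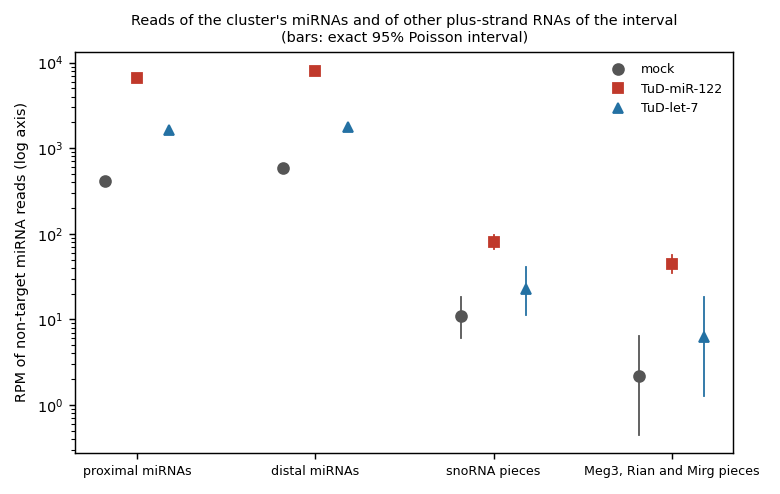
Levels of the proximal and distal miRNAs and of short pieces of snoRNAs and of long plus-strand RNAs of the same interval, as RPM on a log axis, with exact 95% Poisson intervals. TuD-miR-122 is highest in each group, and the intervals of mock and TuD-let-7 overlap for the snoRNA and long RNA pieces.

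Markers of other cells moved with the library too, and their part in the cluster's levels was not tested. Of the pancreas and islet list (6 of 6 precursors with reads), which summed to 2705 RPM in mock, 4016 in TuD-miR-122 and 2547 with TuD-let-7, most reads were of Mir7-1 and Mir7-2, at 0.92-fold to 0.94-fold of mock in both. Its other 4 members were high in TuD-miR-122: Mir216a had 38, 737 and 15 reads in mock, TuD-miR-122 and then TuD-let-7, Mir216b 12, 306 and 4, Mir217 45, 546 and 11, and Mir375, known from islets, 70, 764 and 50. Their ratios to mock in TuD-miR-122 were 18.4, 24.1, 11.5 and 10.3, the size of the cluster's own. In TuD-let-7, where the cluster was 3.42-fold above mock, the same members were 1.12-fold, 0.944-fold, 0.692-fold and 2.02-fold.

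No other list's sum was as far above mock as the cluster. The skeletal muscle list (6 of 6 with reads) was lower, at 9995 RPM in mock, 945.2 in TuD-miR-122 and 218.9 with TuD-let-7. The neural list (15 in the annotation, Mir124a-1, Mir124a-3 and Mir219a-2 at 0 in all libraries) was 589.5, 712.5 and 596.9 RPM, although its member Mir153 had 2, 29 and 0 reads. Of the 10 annotated embryonic precursors 8 were at 0 in every library and the list had 5, 10 and 4 reads, 3.65, 6.90 and 8.26 RPM. miRNAs of other imprinted loci (Mir483 at 0) were at 469.1, 609.7 and 435.8 RPM, 1.30-fold and 0.929-fold of mock. Most of those reads were of Mir335, with 613, 796 and 196, while Mir296 had 18, 67 and 10, 3.52-fold of mock in TuD-miR-122 (2.07 to 6.30). In TuD-miR-122 and TuD-let-7 the remaining lists were, relative to mock, 1.59-fold and 1.03-fold for epithelial miRNAs, 1.40-fold and 0.897-fold for erythroid, 0.945-fold and 0.792-fold for immune, 1.21-fold and 0.927-fold for endothelial, 1.17-fold and 1.16-fold for stromal, and 0.864-fold and 1.19-fold for the hepatocyte list without Mir122. Members within a sum could differ. Of the epithelial list, Mir205 was 0.324-fold and 0.0548-fold of mock, and Mir203 0.738-fold and 1.47-fold. Its other members, Mir200a, Mir200b, Mir200c, Mir141 and Mir429, were 1.87-fold to 2.37-fold in TuD-miR-122 and 0.576-fold to 1.05-fold in TuD-let-7. Of the hepatocyte list, Mir802 was 0.476-fold and 0.197-fold. The others without Mir122 were 0.799-fold to 0.939-fold and 0.864-fold to 1.35-fold.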

How the data were processed

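The deposited files list every distinct insert sequence of a library with its raw read count; per the labels' protocols, 18 to 30 nt RNAs of liver total RNA were gel-purified before library construction. Inserts ran from 15 to 30 nt. The sources used here do not name the adapter removal, filters, aligner or build. The files carry no molecular identifiers, so PCR copies count as separate reads. Precursors were taken from GENCODE release M21 (2202) with 33 more from RefSeq hairpins, both on GRCm38. The 5′ end of an arm was the most frequent start of untailed reads (at least 10) within 4 nt of the RefSeq start, else the RefSeq start; 43 of the 47 cluster arms with both agreed exactly. Arms identical over 22 nt were merged, giving 1746 entries. Ratios carry exact conditional-binomial intervals and shares exact Clopper-Pearson intervals, at 95%. The members, the marker lists and the rule for named arms were chosen with earlier results of these data known. Named arms were the 20 most abundant, the 3 highest and 3 lowest ratios of each comparison, those with at least 20 mock reads, and the 3 extremes of each read form. Precursors with at least 200 reads were named for arm balance. The proximal end was set as everything up to Mir136 and the distal end as Mir379 onward. Alternatives tried were other scalings, read starts up to 2 nt off, a longer match (18 nt), 1 mismatch allowed, inserts read once left out, other minimums, tails limited to 2 nt, trimming set at 20 nt, and, chosen after seeing the data, leaving out miR-136-5p. The counting code was tested on simulated data. Python 3.11 and scipy 1.17.1 were used.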

Additional observations from a re-analysis of the deposited data

How the results depend on the processing

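No paired analysis was possible because each group had 1 library, and no library could be left out. In TuD-miR-122 all 24 named arms stayed above mock and above TuD-let-7 under the 7 alternatives run for them. In TuD-let-7 between 21 and 23 of the 24 were above mock, depending on the setting. The cluster's ratio of TuD-let-7 to mock, 3.42, was 3.14 with median-of-ratios size factors, 2.17 scaled to all miRNA reads and 2.02 scaled to all reads, scales that moved the median of all non-target arms by -0.14, -0.68 and -0.78 on the log2 scale. TuD-miR-122 over TuD-let-7, 4.30, was 7.34 and 7.23 on the latter pair of scales and 4.74 without inserts read once, and TuD-miR-122 over mock, 14.7, was 15.9 scaled to all miRNA reads and 16.1 without inserts read once. The number of cluster arms called higher went from 25 to 44 (minimum of 20 reads over both libraries) and to 13 (20 reads in mock alone) for TuD-miR-122 over mock, from 5 to 9 (20 reads) and to 3 (all reads) and 3 (all miRNA reads) for TuD-let-7 over mock, and from 21 to 10 (20 reads in TuD-let-7 alone) between the decoys; fewer or more arms tested accounts for the changes of minimum. Without miR-136-5p the proximal share was 20.6%, 25.97% and 30.7%, in the library order of the report. With tails of at most 2 nt, tailed shares were 19.3%, 20.3% and 21.6%, and trimmed shares 9.72% (TuD-miR-122) and 11.9% (TuD-let-7); trimming below 20 nt gave 4.70%, 4.04% and 6.07%. The remaining 68 values that answer a comparison stayed within their counting interval or within 1.5 times their count, and none reversed. Depth limits TuD-let-7 most, where 1 read is 2.07 RPM.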
